A study of Mus musculus with 11 samples.

Results

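The genes described here are the hormone genes of the beta cell and those that turn their precursors into stored peptides: *Ins1*, *Ins2*, *Iapp*, *Pcsk1*, *Pcsk2*, *Cpe*, *Pam* and *Slc30a8*. They were chosen by gene symbol, each of the 8 had 1 row among the 55401 genes counted, and all 8 passed the filter on low counts that 17424 genes passed. They were followed in 11 RNA-seq libraries of islet cells sorted by FACS from male C57BL6/J mice, 10 weeks old by the sample labels (the paper's text gives a younger adult age) and fed chow. By the labels, 4 libraries held NNAT-positive beta cells, 4 held NNAT-negative beta cells and 3 held non-beta cells; libraries of one replicate number came from one mouse, and mouse 4 had no non-beta library. All mice carried Cre under the rat insulin promoter, a tdTomato reporter that Cre switches on by removing a stop, and an eGFP transgene under the *Nnat* promoter, hemizygous and inherited from the father. Beta cells were thus sorted by past activity of an insulin promoter, and higher *Ins1* and *Ins2* in the beta cell libraries is tied to that gate. Expression is given as CPM (counts scaled to a common depth) on TMM-normalised library sizes, and total counts per library lay between 30420352 and 43238376.

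Proinsulin and pro-islet amyloid polypeptide are made in the endoplasmic reticulum and cut in maturing granules at pairs of basic residues by the prohormone convertases PC1/3 and PC2, the products of *Pcsk1* and *Pcsk2*. Carboxypeptidase E then trims the basic residues left at the cut ends, and peptidylglycine alpha-amidating monooxygenase, encoded by *Pam*, puts on the C-terminal amide that amylin carries and insulin lacks. The transporter ZnT8, encoded by *Slc30a8*, brings in the zinc with which insulin is packed. Alpha cells share several of these enzymes, since PC2 cuts proglucagon to glucagon, so the non-beta libraries are of interest for the enzymes as well as for the hormones.

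*Nnat* was checked first because its reporter defines the fractions. In 4 of 4 mice it was the lower in the library whose label says NNAT-positive, by between −0.80 and −0.53 on the log2 scale, against the sense of the label (log2 fold change −0.62, SE 0.17, adjusted *p*=0.444 by edgeR's quasi-likelihood test). A table of normalised values published with the study names the beta cell fractions the other way round. Libraries that the sample labels call NNAT-positive or NNAT-negative are therefore named positive-label and negative-label libraries, and every sign between them turns if the labels are exchanged. The 6 beta cell markers (*Mafa*, *Nkx6-1*, *Pdx1*, *Slc2a2*, *Ucn3*, *G6pc2*) summed to between 6191 and 9632 CPM in the 8 beta cell libraries and to between 342 and 729 CPM in the non-beta libraries, where 5 alpha cell markers summed to between 122934 and 171114 CPM and 5 acinar markers to between 12161 and 46556 CPM. The non-beta libraries therefore held a mixture, rich in alpha cell RNA and with exocrine RNA in each. In bulk samples, fewer cells of a type and less RNA per cell cannot be told apart.

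Promoter sequence (RefSeq annotation, GRCm38.p6; 250 bases before to 50 after the start) was at hand for 5 of the 8 genes, *Ins1*, *Iapp*, *Pcsk1*, *Pcsk2* and *Pam*. The windows of 2 genes that were much higher in beta cells, *Ins1* (chr19:52264047-52264346, plus strand) and *Iapp* (chr6:142298175-142298474, plus strand), and of the convertase pair that split between the cell fractions, *Pcsk1* (chr13:75089607-75089906, plus strand) and *Pcsk2* (chr2:143545883-143546182, plus strand), are printed 5′ to 3′ along the gene. Capitals mark TAAT on either strand (TAAT or ATTA), the core bound by homeodomain proteins such as PDX1 and NKX6-1, in *Ins1* and *Iapp*, and TGACG on either strand (TGACG or CGTCA), the core of the cAMP response element, in *Pcsk1*. The *Pcsk2* window was marked for TAAT only and holds none, so no base of it is in capitals. The TGACG match in *Pcsk2* and the TAAT match in *Pcsk1* were left in lower case.
Ins1: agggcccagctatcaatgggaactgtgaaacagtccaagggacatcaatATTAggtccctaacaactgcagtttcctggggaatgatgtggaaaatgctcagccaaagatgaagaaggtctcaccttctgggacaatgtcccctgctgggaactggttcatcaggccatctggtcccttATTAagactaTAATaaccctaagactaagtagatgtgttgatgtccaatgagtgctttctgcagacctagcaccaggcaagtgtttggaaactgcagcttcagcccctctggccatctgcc
Iapp: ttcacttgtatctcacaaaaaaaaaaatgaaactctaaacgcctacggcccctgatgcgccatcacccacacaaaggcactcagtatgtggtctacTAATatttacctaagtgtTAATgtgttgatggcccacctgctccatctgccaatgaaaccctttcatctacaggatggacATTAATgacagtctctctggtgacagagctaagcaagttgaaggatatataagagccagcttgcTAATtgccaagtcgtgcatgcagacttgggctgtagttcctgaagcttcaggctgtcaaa
Pcsk1: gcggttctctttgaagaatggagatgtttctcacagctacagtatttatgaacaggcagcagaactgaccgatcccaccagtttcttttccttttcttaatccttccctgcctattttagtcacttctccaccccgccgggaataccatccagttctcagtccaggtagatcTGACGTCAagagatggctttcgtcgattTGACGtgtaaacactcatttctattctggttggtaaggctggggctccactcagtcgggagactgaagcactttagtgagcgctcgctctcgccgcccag
Pcsk2: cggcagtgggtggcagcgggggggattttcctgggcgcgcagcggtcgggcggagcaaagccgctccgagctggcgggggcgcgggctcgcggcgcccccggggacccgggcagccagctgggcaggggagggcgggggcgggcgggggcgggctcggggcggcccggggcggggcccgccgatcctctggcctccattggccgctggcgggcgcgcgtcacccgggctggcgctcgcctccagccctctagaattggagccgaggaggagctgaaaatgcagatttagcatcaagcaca
TAAT occurred 3 times in the *Ins1* window, at positions −201, −71 and −61 from the start, and 5 times in that of *Iapp*, where 2 matches overlap. It occurred 1 time in *Pcsk1* and 0 times in *Pcsk2* and *Pam*. Of the 32817 promoter windows of this length, 58% held TAAT, so its presence is common. TGACG occurred 3 times in *Pcsk1*, with the matches at −78 and −75 overlapping as one palindrome and a further one at −50, and 1 time in *Pcsk2*, at −34; 20.8% of all windows held it. The *Pcsk1* window was 49.3% G and C, against 76.3% in both *Pcsk2* and *Pam* and a median of 52.7% over all windows.

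The first question was whether the beta cell fractions separated by *Nnat* reporter activity differ in their hormone and processing transcripts. None of the 8 genes differed between the positive-label libraries and the negative-label libraries when edgeR's quasi-likelihood test with mouse as a block was read at an adjusted *p* below 0.01, and 0 of the 8 had an unadjusted *p* below 0.05, as 4.82% of all genes tested did on the higher and 0.746% on the lower side. DESeq2 also called 0 of the 8, with 1 gene, *Pam*, at an unadjusted *p* below 0.05, and so did edgeR on the beta cell libraries alone. Over all genes tested, 0.0517% were called in this comparison (9 of 17424), each higher in the positive-label libraries, so few calls were made among any genes. The libraries of both fractions overlapped in their values for 8 of 8 genes; over all genes tested, 2.05% did not overlap. The fits bounded the changes unevenly: the 95% interval of the log2 fold change ran from −0.72 to 0.33 for *Ins1* and from −0.19 to 0.18 for *Slc30a8*. The width for *Ins1* moved with the non-beta libraries, which enter the shared estimate of the spread: the SE of 0.24 fell to 0.10 without the non-beta library of mouse 3 and to 0.11 with only the beta cell libraries, and *Ins1* was not called in either (adjusted *p*=0.939 and 0.701 by edgeR). A missing call therefore does not show equal levels.

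*Ins1*, the rodent retrogene copy of insulin on chromosome 19 (52264297 to 52265476, GRCm38), had 72013, 75482, 84061 and 42340 CPM in the positive-label libraries of mice 1 to 4. The negative-label libraries of the same mice held 76013, 117497, 82104 and 42119 CPM. Mouse 2 stood apart with more *Ins1* in its negative-label library, while the other mice had close values in both fractions, and mouse 4 was low in both. The log2 fold change was −0.19 (SE 0.24, adjusted *p*=0.961 by edgeR), with the positive-label library higher in 2 of 4 mice. Without mouse 2 it was −0.019 (SE 0.22).

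*Ins2*, the gene that matches the single insulin gene of other mammals (chromosome 7, 142678656 to 142743381), followed the same course. It had 180125, 182890, 203902 and 118397 CPM in the positive-label libraries and 189239, 277782, 196040 and 115719 CPM in the negative-label libraries. Again only mouse 2 had a wide gap between its fractions (−0.60 on the log2 scale), and the fitted log2 fold change was −0.17 (SE 0.22, adjusted *p*=0.969 by edgeR), or −0.00074 without mouse 2. Together *Ins1* and *Ins2* took 23.4 ± 3.83% (SD, *n*=4) of all counts in the positive-label libraries and 25.9 ± 6.78% (SD, *n*=4) in the negative-label libraries.

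*Iapp* encodes amylin, which is stored and released with insulin (chromosome 6, 142298423 to 142303961). It had 21297, 22558, 21381 and 16011 CPM in the positive-label libraries and 21312, 24739, 21398 and 17289 CPM in the negative-label libraries. The positive-label library was the lower one in 4 of 4 mice, but by only 0.001 on the log2 scale in the closest pair and 0.13 in the widest. The fitted log2 fold change was −0.06 (SE 0.13, adjusted *p*=0.987 by edgeR).

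**Figure D1:**
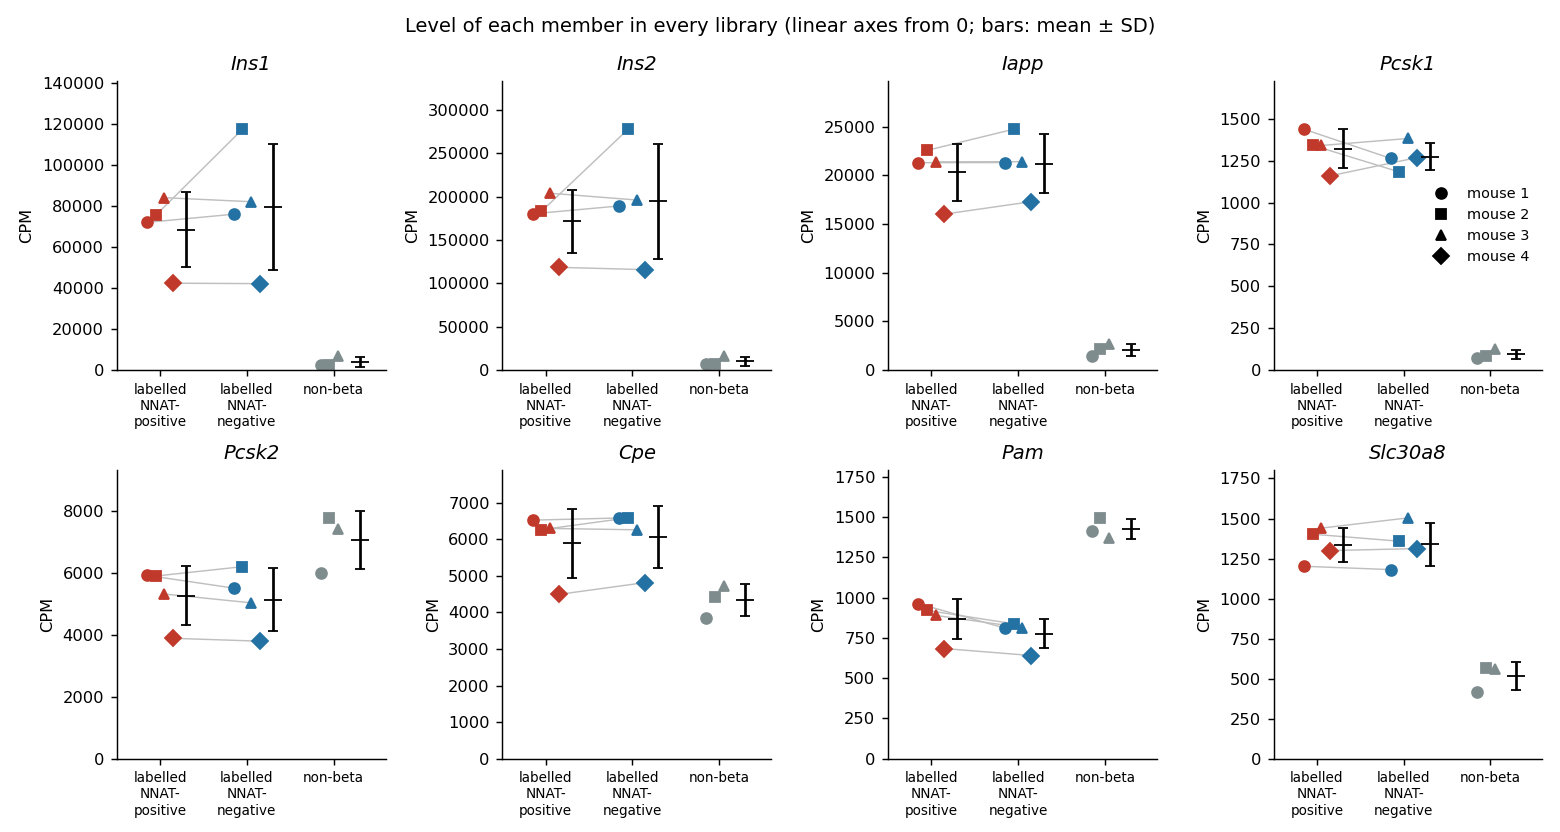
CPM (linear axes from 0) of the 8 genes in each of the 11 libraries, by fraction; symbols mark the mouse, grey lines join the beta cell fractions of one mouse and black bars give the mean ± SD (*n*=4, 4 and 3). The beta cell fractions overlap in every panel, and among the beta cell libraries a library of mouse 4 lies lowest in most panels. The means of *Pcsk2* and *Pam* are higher in the non-beta libraries while those of *Ins1*, *Ins2*, *Iapp*, *Pcsk1* and *Slc30a8* are lower there.

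Among the convertases, *Pcsk1* (chromosome 13, 75089826 to 75134861), whose product makes the first cut of proinsulin, was one of the steadiest of these genes. Its values were 1439, 1343, 1342 and 1160 CPM in the positive-label libraries and 1265, 1183, 1384 and 1269 CPM in the negative-label libraries. Mice 1 and 2 had more in the positive-label library and mice 3 and 4 more in the other, and the log2 fold change was 0.05 (SE 0.13, adjusted *p*=0.995 by edgeR). *Pcsk2* (chromosome 2, 143546156 to 143816285) had 5931, 5909, 5327 and 3894 CPM in the positive-label libraries and 5518, 6212, 5042 and 3801 CPM in the negative-label libraries. Its log2 fold change of 0.04 (SE 0.09, adjusted *p*=0.995 by edgeR) was within the spread between mice and fell just below 0 under 5 of the alternatives. *Pcsk2* shares 260 exonic bases with *Pcsk2os1* and 99 with *Pcsk2os2* on the opposite strand; the sources used here do not state whether counting used the strand, so a small part of its counts could belong to these genes.

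*Cpe*, the carboxypeptidase (chromosome 8, 64592542 to 64693054), had 6527, 6265, 6300 and 4494 CPM in the positive-label libraries and 6585, 6588, 6262 and 4819 CPM in the negative-label libraries. The mice other than mouse 4 lay within a narrow band in both fractions, and the log2 fold change was −0.04 (SE 0.08, adjusted *p*=0.980 by edgeR). *Slc30a8*, the zinc transporter (chromosome 15, 52295553 to 52335798), had 1202, 1402, 1440 and 1300 CPM in the positive-label libraries and 1181, 1358, 1504 and 1312 CPM in the negative-label libraries. Here the order of the mice was the same in both fractions, and the log2 fold change was −0.00 (SE 0.08, adjusted *p*=1 by edgeR).

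*Pam*, the amidating enzyme (chromosome 1, 97795114 to 98095646), was the only one of the 8 genes that was higher in the positive-label library in every mouse. It had 963, 921, 890 and 684 CPM in the positive-label libraries and 811, 837, 814 and 641 CPM in the negative-label libraries, so that each mouse differed in the same direction but the fractions overlapped through mouse 4. The differences within mice were between 0.09 and 0.25 on the log2 scale. The fitted change was 0.15 (SE 0.08), with an unadjusted *p* of 0.083 and an adjusted *p* of 0.885 in edgeR's quasi-likelihood test. With DESeq2 the change was 0.12 (SE 0.05) at an unadjusted *p* of 0.0244 and an adjusted *p* of 0.443. Markers of other endocrine cells were also higher in the positive-label libraries. Among them, *Ppy*, *Pyy* and *Sst* had log2 fold changes of 1.53, 1.35 and 1.37 by edgeR. The paper reports these hormone genes as lower in its NNAT-positive beta cells, the opposite direction. Like *Nnat*, they thus ran against the sense of the label, and their signs turn if the labels are exchanged. The 5 alpha cell markers summed to between 2795 and 4056 CPM in the positive-label libraries and to between 1577 and 2476 CPM in the negative-label libraries, and the 4 delta cell markers to between 1403 and 2490 and between 543 and 1046 CPM. The 2 markers of pancreatic polypeptide cells summed to between 300 and 421 and between 89.0 and 159 CPM, and the fractions did not overlap for any of these lists. *Pam* was itself higher in non-beta cells, and the part of other islet cells in its difference was not tested. *Pam* shares 188 exonic bases with *B230216N24Rik* on its own strand.

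**Figure D2:**
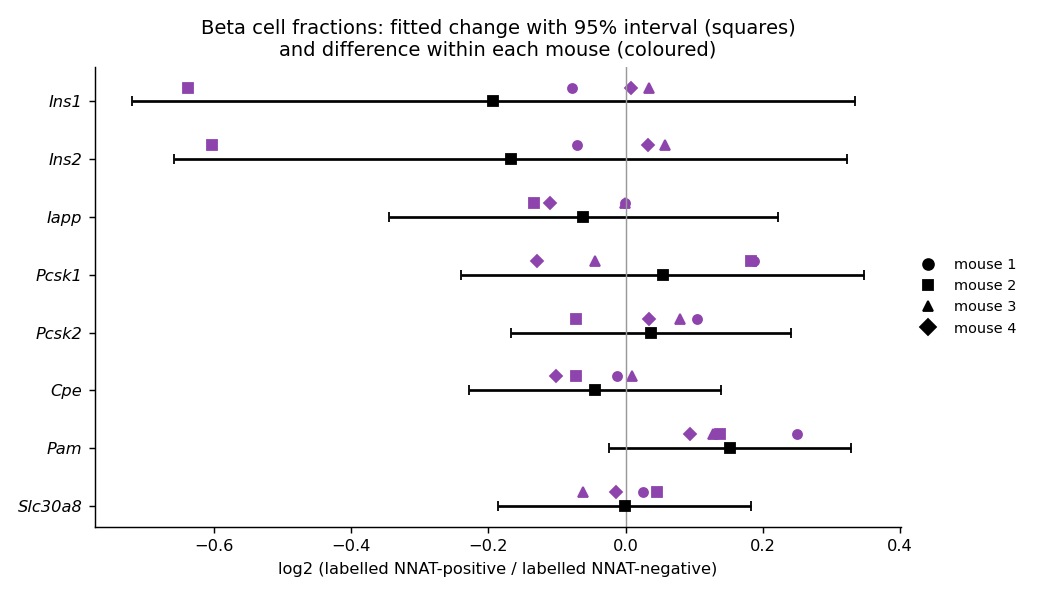
Log2 ratio of the positive-label library to the negative-label library, for each mouse (coloured symbols) and as fitted by edgeR (black squares, 95% intervals as bars), for the 8 genes. All 8 intervals include 0; the points of mouse 2 for *Ins1* and *Ins2* lie far to the left, and the 4 points for *Pam* all lie to the right of 0.

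The SD of log2 CPM between mice was larger than the mean absolute difference between the beta cell fractions of one mouse for 7 of the 8 genes, with 0.52 against 0.19 for *Ins1*, and smaller for *Pcsk1* (0.08 against 0.14). These measures are unlike, an SD of averages per mouse and a difference of single libraries. Their order therefore does not show that fractions differ less than mice do. Averaged over its fractions, mouse 4 had the lowest level of 7 of the 8 genes and of 6 of the 6 beta cell markers. How many of all genes tested were lowest in mouse 4 was not counted, so these counts are not shown to be particular to these genes. Over all genes tested, its beta cell libraries deviated from their group means together, with a correlation of 0.658 against 0.182 to 0.219 in the other mice. Its *Ins1* was 50.0% and its *Ins2* 57.1% of the mean of the other mice, its *Pcsk2* 68.0% and its *Cpe* 72.5%. *Pcsk1* and *Slc30a8* varied least between mice, with mouse 4 at 91.6% and 96.9% of the mean of the others. *Slc30a8* was the gene that did not put mouse 4 last; mouse 1 had the lowest level.

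Against non-beta cells, 6 of the 8 genes were higher in both beta cell fractions, *Pam* was lower and *Pcsk2* was not called at an adjusted *p* below 0.01. In the same test, 15.8% of all genes were higher and 19.1% lower in the positive-label libraries, and 15.6% and 21.3% in the negative-label libraries, so 34.8% and 36.8% were called in either direction. The median log2 fold change of the 8 genes was 2.40 and 2.43, beside −0.06 and −0.13 over all genes tested. Both comparisons use the same 3 non-beta libraries and so are not independent. Values did not overlap between beta and non-beta libraries for 7 of the 8 genes in each comparison, with *Cpe* overlapping for the positive-label libraries and *Pcsk2* for the negative-label libraries. Over all genes tested, the values did not overlap for 50.7% in the positive-label and 47.4% in the negative-label comparison.

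The insulin genes were the most unequal of the 8. *Ins1* had 2393, 2641 and 6583 CPM and *Ins2* 6387, 7014 and 16090 CPM in the non-beta libraries of mice 1 to 3. The library of mouse 3 held more of each insulin gene than the others did. In edgeR's test *Ins1* was 21.9-fold and 25.0-fold higher in the positive-label and negative-label libraries (log2 fold changes 4.45, SE 0.31, and 4.65, SE 0.32; adjusted *p*=1.95e-06 and 1.39e-06). *Ins2* was 20.8-fold and 23.4-fold higher (4.38, SE 0.29, and 4.55, SE 0.29; adjusted *p*=1.3e-06 and 9.72e-07). *Iapp*, which delta cells are also known to express, had 1450, 2138 and 2649 CPM in non-beta libraries, all far below any beta cell library. It was 10.6-fold and 11.1-fold higher in beta cells (log2 fold changes 3.41 and 3.47, SE 0.16 for each; adjusted *p*=1.65e-07 and 1.27e-07).

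The convertases split. *Pcsk1* had 73.9, 82.6 and 125 CPM in the non-beta libraries, and *Pcsk2* had 6004, 7791 and 7430 CPM there. *Pcsk1* was thus near the hormones in its behaviour, while *Pcsk2* was at or above its level in beta cells. *Pcsk1* was 14.7-fold and 14.1-fold higher in the beta cell fractions (log2 fold changes 3.87 and 3.82, SE 0.17 for each; adjusted *p*=1.22e-07 and 1.07e-07 by edgeR). For *Pcsk2* the log2 fold changes were −0.30 and −0.34 (SE 0.10 for each; adjusted *p*=0.0326 and 0.0186 by edgeR), lower in beta cells in 3 of 3 mice. Whether *Pcsk2* was called varied with the settings. With DESeq2's size factors in edgeR it was called lower in both fractions, and also without mouse 1. In the other 8 of 10 alternatives, DESeq2 itself among them, it was not called.

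The other processing genes differed by less. *Cpe* had 3859, 4428 and 4725 CPM in non-beta libraries and was 1.46-fold and 1.51-fold higher in beta cells (log2 fold changes 0.55 and 0.59, SE 0.09 for each; adjusted *p*=7.62e-04 and 4.45e-04 by edgeR). Without the mouse block the calls of *Cpe* were lost (adjusted *p*=0.0693 and 0.0482 by edgeR). *Pam* had 1415, 1496 and 1369 CPM in non-beta libraries, above each of the 8 beta cell libraries. Beta cells had 1.55-fold and 1.73-fold less of it (log2 fold changes −0.63 and −0.79, SE 0.09 for each; adjusted *p*=1.96e-04 and 4.27e-05 by edgeR). *Slc30a8* had 414, 568 and 563 CPM in non-beta libraries and was 2.63-fold higher in each beta cell fraction (log2 fold changes 1.40, SE 0.10 for each; adjusted *p*=1.61e-06 and 1.39e-06 by edgeR).

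**Figure D3:**
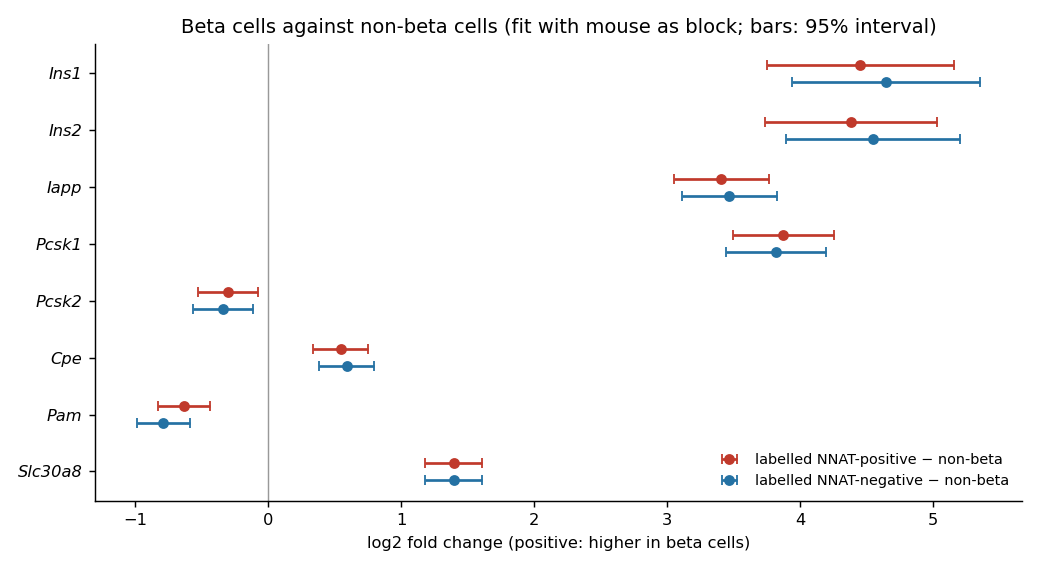
Log2 fold changes of the 8 genes in the positive-label (red) and negative-label (blue) libraries against non-beta cells, as fitted by edgeR with mouse as a block; bars are 95% intervals. *Ins1*, *Ins2*, *Pcsk1* and *Iapp* lie between 3.41 and 4.65, *Slc30a8* at 1.40, *Cpe* between 0.55 and 0.59, and *Pcsk2* and *Pam* below 0.

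Set within each mouse, the non-beta library held a percentage of the mean level of its beta cell libraries that sorted the genes into groups. For mice 1, 2 and 3 it held 3.23, 2.74 and 7.92% of *Ins1* and 3.46, 3.05 and 8.05% of *Ins2*. *Pcsk1* stood at 5.46, 6.54 and 9.17%, and *Iapp* at 6.81, 9.04 and 12.4%. These 4 genes overlapped the range of the 6 beta cell markers, which was 2.92 to 8.41% in mouse 1, 2.79 to 12.9% in mouse 2 and 6.33 to 12.7% in mouse 3; in mouse 2, *Ins1* was just below it. The part of beta cells left in the non-beta gate in these levels was not tested. *Slc30a8* stood well above the markers, at 34.8, 41.2 and 38.2%, followed by *Cpe* at 58.9, 68.9 and 75.2%. *Pcsk2* reached 105, 129 and 143% and *Pam* 160, 170 and 161%, so that transcripts of these enzymes were not poorer in the non-beta fraction in any of the 3 mice.

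**Figure D4:**
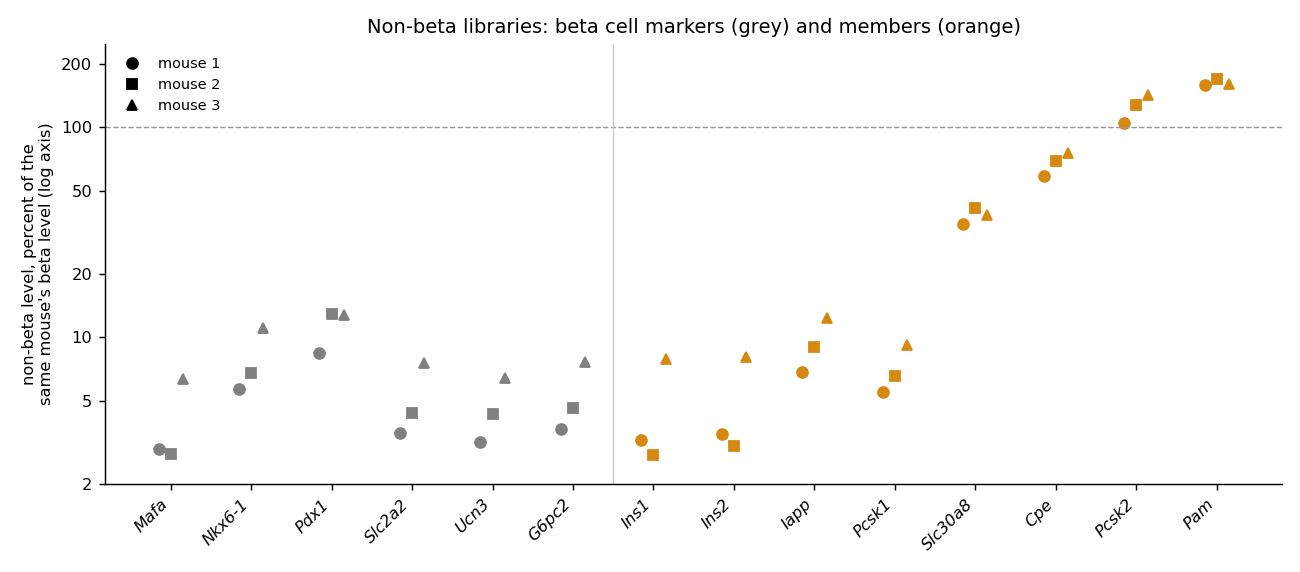
Level in the non-beta library as a percentage of the mean level of the beta cell libraries of the same mouse (log axis), for 6 beta cell markers (grey) and the 8 genes (orange) in mice 1 to 3; the dashed line marks 100%. *Ins1*, *Ins2*, *Iapp* and *Pcsk1* lie among the markers, *Slc30a8* and *Cpe* lie between 34.8 and 75.2%, and *Pcsk2* and *Pam* lie above the line.

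Ratios within a library do not depend on how libraries are scaled. With counts divided by the length of all exons of each gene (5604 bases for *Pcsk1*, 7910 for *Pcsk2*), the *Pcsk1* to *Pcsk2* ratio was 0.343, 0.321, 0.356 and 0.420 in the positive-label libraries of mice 1 to 4. It was 0.323, 0.269, 0.387 and 0.471 in the negative-label libraries, and 0.0174, 0.0150 and 0.0237 in non-beta libraries of mice 1 to 3. The beta cell fractions overlapped, and mouse 4 had the highest ratio in both, while no non-beta library came near. Within mice the ratio was 18.5-fold higher in the positive-label library and 17.6-fold higher in the negative-label library than in non-beta cells, in 3 of 3 mice each; the exact two-sided sign-flip permutation test gave *p*=0.25, the smallest 3 pairs allow (adjusted *p*=0.338 over 27 tests). Between the beta cell fractions the ratio was higher in the positive-label library in 2 of 4 mice (exact permutation *p*=1). With the longest transcript of each gene as length, the mean ratios fell from 0.360 to 0.239 and from 0.363 to 0.241, with no change in the folds.

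The share of *Ins1* in all insulin counts was steady. It was 28.6, 29.2, 29.2 and 26.3% in the positive-label libraries and 28.7, 29.7, 29.5 and 26.7% in the negative-label libraries, with mouse 4 lowest in both. Non-beta libraries of mice 1 to 3 held 27.3, 27.3 and 29.0%. The share was lower in the positive-label library in 4 of 4 mice, by between 0.096 and 0.511 percentage points, and the exact permutation test gave *p*=0.125, the smallest that 4 pairs allow (adjusted *p*=0.338 over 27 tests). The transcripts of the insulin genes have 988 and 1561 distinct stretches of 75 bases, the read length, of which 0 are shared, and their longest common stretch is 56 bases, so a full read without mismatches has only one insulin gene as its exact source. The shares above are of counts not adjusted for length. With counts divided by the number of these stretches in each gene, the mean *Ins1* share was 38.4% in the positive-label libraries. It was 38.8% in the negative-label and 37.9% in the non-beta libraries.

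*Iapp* counts stood at 0.120 ± 0.0126 (SD, *n*=4) per *Ins2* count in the positive-label libraries and at 0.115 ± 0.0251 (SD, *n*=4) in the negative-label libraries. In non-beta libraries of mice 1 to 3 the ratio was 0.227, 0.305 and 0.165, above the beta cell libraries of the same mouse in 3 of 3 mice (exact permutation *p*=0.25, the smallest possible; adjusted *p*=0.338 over 27 tests). The non-beta library of mouse 3, with the most insulin, had the lowest of these ratios.

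**Figure D5:**
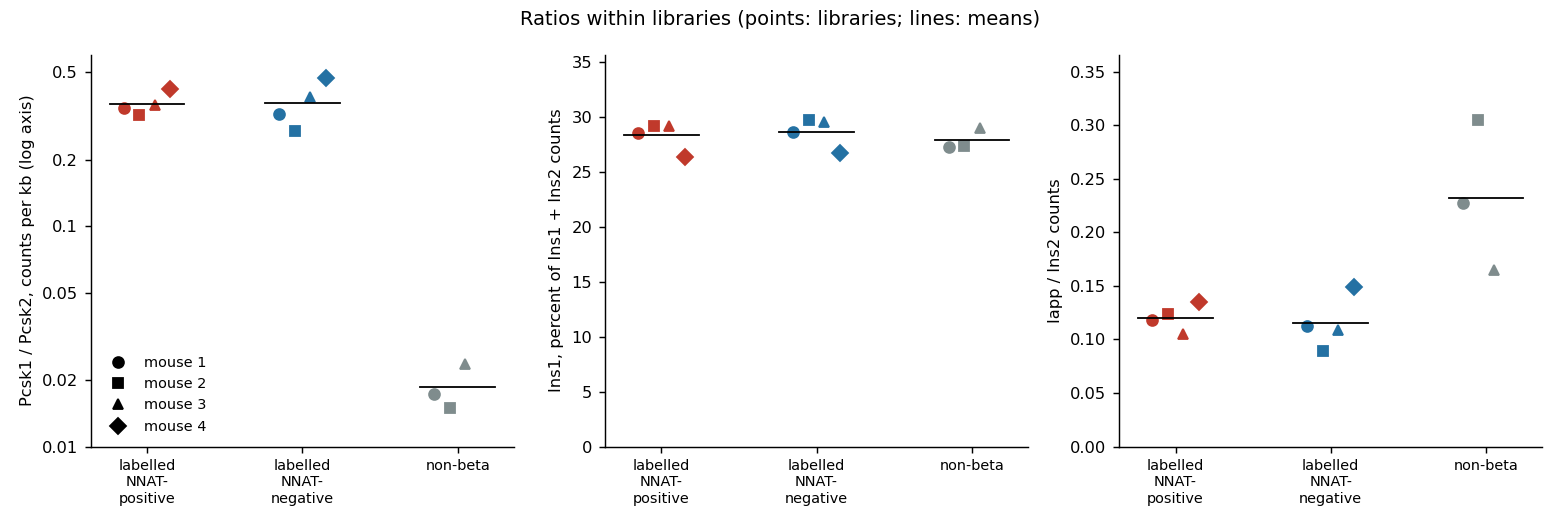
Ratios within each of the 11 libraries: *Pcsk1* to *Pcsk2* counts per kb of exon (left, log axis), *Ins1* as a percentage of *Ins1* and *Ins2* counts (middle, from 0) and *Iapp* to *Ins2* counts (right, from 0). Points are libraries, symbols mark the mouse and lines are means; the convertase ratio separates beta from non-beta libraries, at 0.269 or above against 0.0237 or below, while the *Ins1* share stays between 26.3 and 29.7%.

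Per kb of exon, the order of levels was the same in both beta cell fractions. *Ins2* came first, with 130586 ± 28087 CPM per kb (SD, *n*=4) in the positive-label libraries, followed by *Ins1* (64476 ± 17085), *Iapp* (20854 ± 3002) and *Cpe* (2260 ± 361). *Slc30a8* (678 ± 54.4) and *Pcsk2* (666 ± 121) had overlapping values, and *Pcsk1* (236 ± 20.8) and *Pam* (72.7 ± 10.4) came last. In the negative-label libraries the values of *Ins2* and *Ins1* overlapped too. Non-beta cells had another order below the first 4 genes, whose values overlapped with those of their neighbours: *Pcsk2* (894 ± 119 CPM per kb, SD, *n*=3), *Slc30a8* (261 ± 44.3), *Pam* (120 ± 5.38) and, last, *Pcsk1* (16.7 ± 4.88). Part of this order depends on the length used. With the longest transcript of each gene, *Pcsk2* lay above *Slc30a8* without overlap in the positive-label libraries (1115 ± 202 and 678 ± 54.4 CPM per kb) and in the negative-label libraries (1089 ± 215 and 679 ± 67.6). *Pam* then lay above *Slc30a8* in non-beta cells (348 ± 15.6 and 261 ± 44.3), and its values overlapped with those of *Pcsk1* in the positive-label libraries. Together the 8 genes took 26.9 ± 4.03% of counts in the positive-label libraries, 29.4 ± 6.90% in the negative-label libraries and 3.07 ± 0.883% in non-beta cells. Without the insulin genes the other 6 took 3.44 ± 0.264%, 3.44 ± 0.128% and 1.63 ± 0.124%.

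The genes whose course over the 11 libraries was most like that of each of the 8 were ranked by the root mean square difference of centred log2 CPM. *Ins1* and *Ins2* were most like each other, at 0.08, and the next for both was *Plut*, a long RNA gene beside *Pdx1*. For *Iapp* the nearest was the beta cell transcription factor gene *Nkx6-1* (0.16). For *Pcsk1* it was *Ero1lb* (0.12), which encodes an oxidase of the endoplasmic reticulum that serves disulphide bond formation in proinsulin, with 3709, 3985 and 293 CPM on average in the positive-label, negative-label and non-beta libraries. *Pcsk2* was nearest to *Bsg* (0.08) and *Nucb1* (0.08), *Cpe* to *Eid1* (0.05), *Pam* to *Add1* (0.09) and *Slc30a8* to *Ttc39a* (0.08), none of them a beta cell marker on the list used here.

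The wider machinery of hormone processing was followed through lists of 33 other genes, of which 31 were tested. Between the beta cell fractions, 0 of the 31 were called in edgeR's test, beside 0.0517% of all genes tested. An unadjusted *p* below 0.05 was found for 3 of the 31, beside 4.82% of all genes on the higher and 0.746% on the lower side. *Furin*, a convertase of the trans-Golgi network, was at 75.2, 81.9, 87.3 and 67.5 CPM in the positive-label libraries and 66.7, 56.9, 76.4 and 48.3 CPM in the negative-label libraries, with every mouse higher in the first (log2 fold change 0.34, SE 0.10, unadjusted *p*=0.00716, adjusted *p*=0.525 by edgeR). It was named because of this value, as was *Atp6ap2* (−0.22, SE 0.08, adjusted *p*=0.818), an accessory gene of the proton pump that acidifies granules. The third was *Mme*, the gene of neprilysin, with 0 to 27 counts in any beta cell library.

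Against non-beta cells, 12 of the 31 were higher and 7 lower in the positive-label libraries, and 10 higher and 8 lower in the negative-label libraries. Over all genes tested, 15.8% were higher and 19.1% lower in the first comparison and 15.6% and 21.3% in the second, so the lower counts were near the share over all genes. *Scg5*, whose product 7B2 is needed for PC2 to mature, had 764 to 1348 CPM in beta cells and 783 to 924 CPM in non-beta cells, and was called in neither comparison (log2 fold changes 0.36 and 0.37, adjusted *p*=0.057 and 0.0494 by edgeR). *Pcsk1n*, which encodes proSAAS, an inhibitor of PC1/3, had 502 to 1319 CPM in beta and 1280 to 1864 CPM in non-beta cells. It was called lower in the positive-label libraries (−0.84, SE 0.18, adjusted *p*=0.00384) and just missed the threshold in the others (−0.67, SE 0.18, adjusted *p*=0.0119 by edgeR).

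Among 7 other convertases, 3 were lower and 1 higher in the negative-label libraries than in non-beta cells. In the positive-label libraries, 2 were lower and 1 higher. Over all genes tested, 21.3% were lower and 15.6% higher in the negative-label libraries, and 19.1% and 15.8% in the positive-label libraries. *Pcsk6* had 17.6 to 39.5 CPM in beta and 50.2 to 68.5 CPM in non-beta cells and was lower in both fractions (−0.71 and −0.92). *Pcsk5* had at most 11 counts in any beta cell library and 230 to 1294 counts in non-beta libraries.

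Among 6 other carboxypeptidases, *Cpm* was higher in both fractions (16.7 to 35.4 CPM in beta and 10.6 to 12.2 CPM in non-beta cells; log2 fold changes 1.37 and 1.41, SE 0.14 for each). *Cpxm1* and *Cpxm2*, whose products lack carboxypeptidase activity, had at most 15 and 13 counts in beta cell libraries, and at least 827 and 577 in non-beta libraries, where mesenchymal markers also stood at 1857 to 4176 CPM against at most 2.08 CPM in beta cell libraries. Of the 11 zinc genes, 9 were tested, and 6 were called higher in the positive-label libraries and 5 in the negative-label libraries, with 0 called lower, beside 15.8% and 15.6% higher and 19.1% and 21.3% lower over all genes tested. *Slc30a2* had 0 counts in every beta cell library and 34 to 58 in non-beta libraries, but was not called (adjusted *p*=0.0234 and 0.0245 by edgeR). The untested *Slc30a3* and *Slc30a10* also had 0 counts in every beta cell library, and at most 12 and 46 in a non-beta library. The metallothionein gene *Mt1* rose by 0.99 and 1.15 on the log2 scale, and *Slc30a7* (0.97 and 0.86) and *Slc30a5* (0.79 and 0.77), transporters that load zinc into the early secretory route, were also higher in both, each by less than *Slc30a8*.

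Copper is the cofactor of PAM. The copper pump gene *Atp7a* was higher in both fractions (58.3 to 79.4 CPM in beta and 30.1 to 35.7 CPM in non-beta cells; log2 fold changes 1.06 and 0.98, SE 0.10 for each), in the direction opposite to *Pam* itself. *Atp6ap2* was also higher (1.31 and 1.52), whereas *Tcirg1*, which encodes a subunit of the proton pump, had 2.78 to 6.69 CPM in beta and 11.3 to 17.7 CPM in non-beta cells and was lower in both (−2.11 and −1.85; adjusted *p*=2.15e-04 and 4.35e-04 by edgeR). *Mme*, whose product cuts amylin and other small peptides, was lower in both fractions, with 240 to 526 counts in non-beta libraries. *Ide*, the gene of the insulin-degrading enzyme, was called in neither comparison (log2 fold changes 0.35 and 0.29, adjusted *p*=0.0115 and 0.0249 by edgeR).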

How the data were processed

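Poly(A) RNA of 11 sorted samples was sequenced as paired reads of 75 bases after a directional library protocol. Alignment to mm10 and counting were done by the authors with STAR 2.7.1a, per gene on gencode M25, and the authors deposited raw counts, which were used here as they are. The deposited counts of no pair among the 55 pairs of libraries were identical.

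Genes were filtered with filterByExpr by fraction and tested with the quasi-likelihood test of edgeR 4.0.16 (R 4.3.3) after TMM normalisation, with all 11 libraries in one fit, mouse as a block and Benjamini-Hochberg adjustment over 17424 genes; the threshold was 0.01. SEs were derived from each change and its *F* statistic. Each mouse was an individual animal per the study's methods, and the beta cell fractions of one mouse deviated from their group means together, with correlations over all tested genes of 0.182 to 0.658 (4 pairs). Beta cell fractions of different mice correlated by −0.322 to 0.0931 (12 pairs). Beta cell and non-beta libraries of one mouse correlated by 0.0321 to 0.125 (6 pairs). Those of different mice correlated by −0.105 to 0.0683 (18 pairs), a range that overlaps the range within mice. Ratios were tested by exact two-sided sign-flip permutation within mice. Exon lengths, coordinates and overlaps came from gencode release 21 on GRCm38, the same assembly as mm10. DESeq2 1.42.0 was an alternative.

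A floor of 3 counts corresponds to between 0.0649 and 0.102 CPM per library, and the lowest count of any of the 8 genes was 3118, so counting error is small beside the spread between mice; intervals do not cover errors of sorting or labelling. The genes and lists were chosen with earlier results of these data known. The genes named from the lists were *Scg5* and *Pcsk1n* and, per other list, up to 3 called genes with the largest change in the negative-label libraries against non-beta cells. *Furin*, *Ide*, *Slc30a2*, *Slc30a3*, *Slc30a10* and the mention of *Atp6ap2* and *Mme* between the beta cell fractions were added after their values were seen. A listed gene is not reported here. The single-cell, methylation, protein and imaging data of the study were not analysed here.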

Additional observations from a re-analysis of the deposited data

Results flagged for a closer look

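Of 36 groups of 4 libraries examined with Dixon's test at the 95% level, 4 had 1 library far from the rest. Chance flags about 1 group in 20 where groups are independent. These groups are not, since ratios and shares were built from counts of the same genes, so the number flagged cannot be set against that rate. All 4 times the library far from the rest came from mouse 4, its positive-label library 2 times and its negative-label library 2 times. *Cpe* was at 4494 CPM in its positive-label library, against 6265 to 6527 CPM in the other mice. *Pam* was at 641 CPM in its negative-label library, against 811 to 837 CPM. *Nnat* was at 101 CPM in its positive-label library and at 153 CPM in its negative-label library, above the other mice in each fraction. Mouse 4 is in both beta cell fractions, and leaving it out changed no call of the 8 genes.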

How the results depend on the processing

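Of 248 values of the 8 genes under the alternatives, 235 kept their direction and their side of the threshold. Between the beta cell fractions, 0 of the 8 genes were called in each alternative run. The log2 fold change of *Pcsk2* there changed sign at sizes near 0: −0.00054 with DESeq2's size factors and with DESeq2, −0.00056 with library sizes without the 10 most abundant genes, −0.0028 with only the beta cell libraries and −0.0017 without mouse 4, the lowest value with a mouse left out, against 0.072 at most (without mouse 2). *Slc30a8* changed sign without mouse 3 (0.021, against −0.035 without mouse 4, the lowest with a mouse left out) and without the non-beta library of mouse 3 (0.00029), an alternative chosen after seeing the data, as was the longest transcript as length for the order of levels. For *Ins1* and *Ins2* the changes of −0.19 and −0.17 kept their sign but went to −0.019 and −0.00074 without mouse 2, and to −0.30 and −0.28 without mouse 4. The number of all genes called higher there went from 9 to 1 without the mouse block, 123 with DESeq2 and 29 without the filter, and lay between 0 (without mouse 3) and 5 when a mouse or that library was left out, with 3 without mouse 2 or mouse 4; the number called lower went from 0 to 14 with DESeq2 and 1 without the filter. The *Pcsk1* to *Pcsk2* ratio between these fractions, 0.012 on the log2 scale, lay between −0.068 and 0.071 with a mouse left out, below 0 without mouse 1 (−0.011) or mouse 2.

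Against non-beta cells, *Pcsk2* was called lower with DESeq2's size factors (−0.40 in each fraction; adjusted *p*=0.00712 and 0.00669 by edgeR) and without mouse 1 (−0.43 and −0.45; adjusted *p*=0.00571 and 0.00457), so that 2 of the 8 genes were lower rather than 1. Over its alternatives the adjusted *p* of *Pcsk2* ran from 0.00571 to 0.192 and from 0.00457 to 0.136. Without the mouse block, *Cpe* was not called (0.44 and 0.48; adjusted *p*=0.0693 and 0.0482 by edgeR), and the block changed no other call of the 8 genes. Genes called higher numbered between 1811 (without mouse 3) and 2462 for the positive-label libraries and between 1738 (without mouse 3) and 2463 for the negative-label libraries with a mouse or that library left out, beside 2746 and 2711 with all libraries. The cause of these differences was not tested. With mouse 1, 2 or 3 left out, 2 non-beta libraries remained.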
